A study of Mus musculus with 8 samples.

Results

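The transcription factors that direct myeloid cells, from which macrophages and granulocytes arise, were followed in whole mouse embryos with and without Runx1. The set held Spi1, Cebpa, Cebpb, Cebpd, Cebpe, Irf8, Gfi1 and Ikzf1. A gene entered through the probe sets that the platform annotation gave to its symbol alone. By this rule 7 of the 8 genes were measured, on 11 probe sets, among 18193 named genes and 45037 probe sets in all. Cebpe was not analysed here. Each gene was read first from the probe set with the highest mean log2 intensity over all 8 arrays, called the brightest below, and its other probe sets served as a check.

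Total RNA came from embryo propers, the embryo without its surrounding tissues, of wild-type and Runx1 knockout mice kept on a BALB/c background. Embryos were taken at embryonic day 8.5 (E8.5) and at day 12 (E12), with 2 arrays for each genotype at each stage. The study describes the arrays of a group as biological replicates, and the labels do not say whether several embryos shared an array. The p-values measure only the spread between these samples. RNA of the whole embryo was measured, so fewer cells of a type and less RNA per cell cannot be told apart.

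Values are log2 intensities on an Affymetrix mouse array after Robust Multi-array Analysis, and a difference of 1 is a doubling. Median log2 intensities were 4.96 to 5.01 on the E8.5 arrays and 5.16 to 5.20 on the E12 arrays. The brightest 1% of probe sets began at 12.2 to 12.3 on the E8.5 arrays but at 10.5 to 11.1 on the E12 arrays, and the scaling across the stages is not settled. Probe sets differ in how brightly they read, and levels of different genes were not ordered against each other. The brightest Runx1 probe set differed by 0.58 (SE 0.28) at E8.5 and by 0.26 (SE 0.28) at E12, knockout minus wild type. Of 5 other Runx1 probe sets, the one with the largest difference read 5.26 and 5.09 in E8.5 wild type but 6.09 and 6.33 in E8.5 knockout, a difference of 1.03 (SE 0.17, not called), and differed by -0.22 (SE 0.17) at E12. The position of the probes is unknown with respect to the stretch of Runx1 that was disrupted, so this does not check the genotype. The array numbered 1 of the E8.5 wild type stood apart. Its summed intensity of 6 trophoblast genes was 13600, against 631 to 1072 in the other E8.5 arrays, although embryo propers should hold little of that placental tissue.

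The members act at different steps of blood formation. Spi1 encodes PU.1, an ETS family factor needed for macrophages, granulocytes and B cells. Cebpa, Cebpb, Cebpd and Cebpe encode C/EBP factors, leucine zipper proteins that bind as dimers: C/EBP alpha starts granulocyte development, C/EBP epsilon completes it, and C/EBP beta and delta respond to inflammation and stress. Irf8 encodes an interferon regulatory factor that pairs with PU.1 and favours macrophages and dendritic cells over granulocytes. Gfi1 encodes a zinc finger repressor of transcription that acts in granulocytes and stem cells. Ikzf1 encodes Ikaros, a zinc finger factor of lymphoid and other blood cells. RUNX1 is known to act upstream of PU.1 in blood progenitors.

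RefSeq promoter windows (GRCm38.p6, 250 bases before to 50 after a gene's start) were matched for 5 of the 8 genes, in 8 windows: Cebpa, Cebpb, Gfi1, Irf8 and Ikzf1. They were searched on both strands for the core letters read by RUNX factors, TGTGGT or TGCGGT, and for a PU.1 core, GAGGAA. The RUNX runs differ in 1 letter and cannot both sit at the same place on a strand. Of 32851 promoter windows of this length, 16.8% held TGTGGT, 6.45% held TGCGGT, 22.4% held either, and 28.3% held GAGGAA. In the 8 windows there was 1 match, a TGCGGT on the reverse strand of the second Irf8 window, at position -197 from the start. The 250 bases upstream in that window are shown because they hold the match, which is in capitals as it reads on the forward strand (ACCGCA). They lie at chr8:120738389-120738638 on the plus strand.
Irf8 second window: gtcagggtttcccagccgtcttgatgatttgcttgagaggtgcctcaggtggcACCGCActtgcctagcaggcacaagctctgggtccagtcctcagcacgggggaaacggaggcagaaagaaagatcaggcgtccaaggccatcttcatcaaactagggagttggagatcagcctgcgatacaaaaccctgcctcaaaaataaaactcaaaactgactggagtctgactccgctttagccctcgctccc
Both Ikzf1 windows are shown because this gene had the largest knockout difference among the members. They lie at chr11:11685675-11685924 and chr11:11689927-11690176 on the plus strand, and have no capitals since none of the letters searched for occurs in them.
Ikzf1 first window: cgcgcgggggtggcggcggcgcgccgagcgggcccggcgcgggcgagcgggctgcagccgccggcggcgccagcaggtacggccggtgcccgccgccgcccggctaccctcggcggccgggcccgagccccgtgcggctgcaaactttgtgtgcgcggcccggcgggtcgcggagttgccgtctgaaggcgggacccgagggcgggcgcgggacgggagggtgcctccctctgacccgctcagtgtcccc
Ikzf1 second window: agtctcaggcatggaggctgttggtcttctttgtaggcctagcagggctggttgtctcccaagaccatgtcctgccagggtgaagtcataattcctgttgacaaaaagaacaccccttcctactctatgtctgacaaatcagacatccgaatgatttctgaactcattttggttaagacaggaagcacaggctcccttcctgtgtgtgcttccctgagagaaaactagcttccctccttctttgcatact
A match describes letters only, and its absence says nothing of whether a factor binds.

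At E12 the brightest probe set of Ikzf1 read 4.03-fold lower in the knockout than in wild type, the largest difference among the members. The 2 wild-type arrays read 7.90 and 7.64 and the 2 knockout arrays 5.77 and 5.74. The groups did not overlap, and each genotype was tight, at 7.77 ± 0.18 and 5.76 ± 0.022 (SD, n = 2). The difference was -2.01 (SE 0.68, 95% interval -3.64 to -0.38, t = -2.95). It was not called after adjustment over all probe sets (limma, adjusted p = 1.00). Between arrays of the same number it was -2.13 and -1.90.

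At E8.5 the same Ikzf1 probe set gave 6.44 and 8.47 in wild type against 6.39 and 7.68 in knockout. The spread within each genotype was far wider than the difference between them, -0.42 (SE 0.68). That difference was -1.43 without wild-type replicate 1 and 0.59 without wild-type replicate 2. In both genotypes the array numbered 2 read higher, and the red cell genes did the same: 8 of them summed to 8441 and 40118 in wild type and to 10994 and 14739 in knockout, and all 8 were lower on average in the E8.5 knockout. Their part in the Ikzf1 readings was not tested. In order of level, the groups ran from E12 wild type through E8.5 wild type (7.46 ± 1.4) and E8.5 knockout (7.04 ± 0.91) to E12 knockout. The first 3 overlapped, and only E12 knockout lay below every other array.

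The other Ikzf1 probe set did not show this difference. It gave 6.85 and 6.51 for the E12 wild-type arrays against 6.37 and 6.52 for the knockout arrays, with overlapping groups and a difference of -0.23 (SE 0.20, 95% interval -0.71 to 0.24). It was instead higher at E12 than at E8.5, where the 4 arrays read 5.05 to 5.41. From E8.5 to E12 it rose by 1.45 in wild type (limma adjusted p = 0.0044) and by 1.25 in knockout (limma adjusted p = 0.0072). The rise in knockout was not called without either E12 knockout array or without E8.5 knockout replicate 2 (limma adjusted p = 0.053 to 0.065). Which Ikzf1 transcripts each probe set reads was not analysed here. The mean of both probe sets differed by -1.12 at E12.

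**Figure D1:**
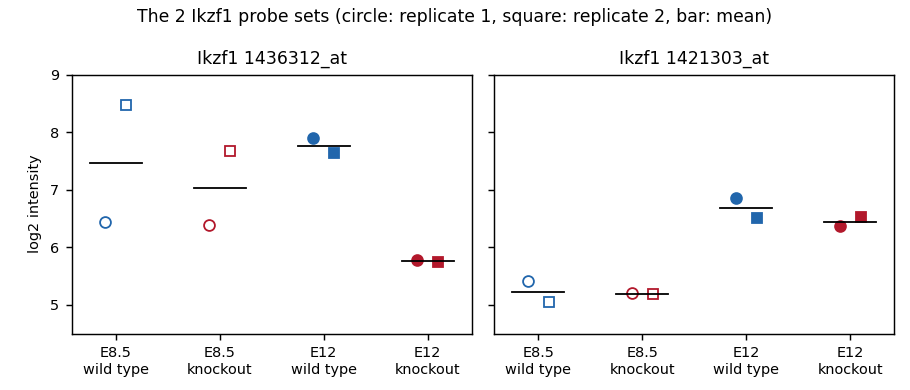
Log2 intensity of the 2 Ikzf1 probe sets (brightest at left, the other at right) on each of the 8 arrays, with wild type in blue, knockout in red and the mean of each group as a bar. At left the 2 E12 knockout arrays read 5.77 and 5.74, below all others, and at right the groups separate by stage and not by genotype.

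By the brightest probe sets Cebpb had the next largest difference at E12, while the second Irf8 probe set differed by more (-0.65). The brightest Cebpb probe set read 5.15 and 5.05 in wild type against 4.48 and 4.55 in knockout, so that the groups did not overlap. The difference of -0.59 had an SE of 0.57 and an interval of -1.96 to 0.78. The fit shares 1 spread per probe set over all groups, and the SD was 1.4 in E8.5 wild type against 0.073 and 0.049 in the E12 groups. At E8.5 the wild-type arrays read 7.33 and 5.37 and the knockout arrays 5.60 and 5.19.

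The E8.5 wild-type reading of 7.33 came from the array with high trophoblast markers. Without that array the E8.5 difference of Cebpb changed from -0.96 (SE 0.57) to 0.024, and without the other E8.5 wild-type array it was -1.94. Each of these fits rests on the E8.5 wild-type array that was left, and the spread then comes from the other groups. Socs3, an inhibitor of cytokine signalling, read 8.12 in the same array and 5.34 to 5.42 in the other 3 at E8.5. Ets2, an ETS factor of trophoblast, read 11.34 there and 9.11 to 9.61 in the others. The part of trophoblast RNA in these readings was not tested. The second Cebpb probe set read 4.96 there against 4.37 to 4.61 in the remaining 3, and differed by -0.21 at E12 (SE 0.22) and by -0.20 at E8.5 (SE 0.22).

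Cebpa differed by less than its error. At E12 it read 5.44 and 4.80 in wild type against 4.71 and 4.87 in knockout, with overlapping groups and a difference of -0.33 (SE 0.34). At E8.5 it read 5.21 and 4.30 in wild type against 4.75 and 4.63 in knockout, with both knockout arrays inside the wild-type range. The E12 wild-type array numbered 1 gave the highest reading of the 8.

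Cebpd was uneven among the wild-type arrays. At E12 they read 5.47 and 4.34, on either side of the knockout arrays at 4.68 and 4.47, and the difference of -0.33 (SE 0.50) turned to 0.23 without wild-type replicate 1. At E8.5 they read 4.48 and 5.76, again on either side of the knockout arrays at 5.12 and 5.36. The second probe set of Cebpd differed at E12 by 0.18 (SE 0.29), the opposite sign.

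Spi1 had 1 probe set, near the array medians at a mean log2 intensity of 5.10, and small differences at both stages. At E12 it read 5.59 and 5.21 in wild type against 5.10 and 5.29 in knockout, with a difference of -0.21 (SE 0.21). The 95% interval of that difference ran from -0.70 to 0.29. At E8.5 it read 4.82 and 5.14 in wild type against 4.91 and 4.74 in knockout, a difference of -0.16 (SE 0.21). The groups overlapped at both stages. In order, they ran from E12 wild type (5.40 ± 0.27) and E12 knockout (5.19 ± 0.14) to E8.5 wild type (4.98 ± 0.23) and E8.5 knockout (4.83 ± 0.12), and no neighbours differed beyond their spread.

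Irf8, the partner of PU.1, was also highest in the E12 wild-type array numbered 1. Its brightest probe set read 5.25 and 4.62 for E12 wild type but 4.56 and 4.60 for E12 knockout. The groups did not overlap, but wild-type replicate 2 lay close above the knockout arrays, and the difference was -0.35 (SE 0.25). The second probe set read 5.68 and 4.71 in wild type against 4.57 and 4.51 in knockout, a difference of -0.65 (SE 0.36) with the same order of arrays. At E8.5 the brightest read 4.54 and 4.33 in wild type against 4.34 and 4.69 in knockout, with a difference of 0.078 (SE 0.25).

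Gfi1 read low throughout, at 3.05 to 3.48 on the 8 arrays. At E12 the wild-type arrays read 3.35 and 3.27 and the knockout arrays 3.08 and 3.05, without overlap, and the difference was -0.25 (SE 0.18). At E8.5 it read 3.48 and 3.06 in wild type against 3.39 and 3.43 in knockout, a difference of 0.14 (SE 0.18). No detection calls were given, so whether Gfi1 lay above background is not known. The brightest probe sets of Spi1, Cebpa, Cebpd and Irf8 had means of 5.10, 4.84, 4.96 and 4.62. These lay near or below the array medians of 4.96 to 5.20. Whether they lay above background is not known either, and small differences in them do not show that these genes were unchanged.

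**Figure D2:**
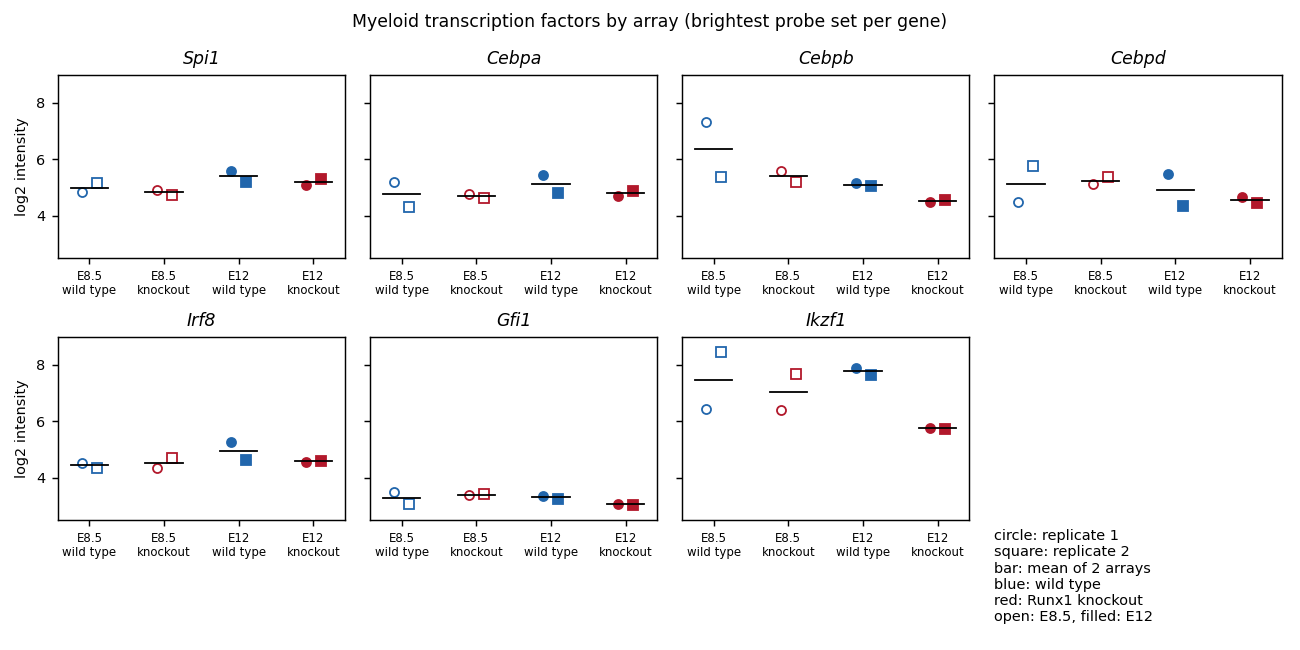
Log2 intensity of the brightest probe set of each of the 7 measured genes on the 8 arrays, with wild type in blue and knockout in red, open at E8.5 and filled at E12, with the group mean as a bar. Only Ikzf1 shows a wide gap between the genotypes at E12 (7.77 against 5.76), and the one high Cebpb reading of 7.33 belongs to E8.5 wild-type replicate 1.

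Over the members together, none was called in the E12 comparison by limma at an adjusted p below 0.05, where 0.0133% of all probe sets were called. At an unadjusted p below 0.05 there was 1, Ikzf1. The share of all probe sets below that p was not counted, here or in the comparisons below. None passed an absolute t above 3, the threshold of the study's methods, which 0.655% of all probe sets passed. Ikzf1 lay just inside that limit. With each stage fitted alone Ikzf1 and Cebpb passed it, and Ikzf1 then had a limma adjusted p of 0.11.

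All 7 members read lower on average in the E12 knockout, where 47.5% of all probe sets did. Their median difference was -0.33, beside 0.011 over all probe sets. This direction leaned on the E12 wild-type array numbered 1, which read highest of the 4 E12 arrays for each of the 7 genes. Without it the median was -0.038 and 6 of 7 were lower, and without the other E12 wild-type array the median was -0.65. For Cebpb, Irf8, Gfi1 and Ikzf1, 4 of the 7, both knockout arrays lay below both wild-type arrays, which held for 15.8% of all probe sets.

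At E8.5 there was no common direction. Of the 7 members, 4 were lower in the knockout and 3 higher, where 53.1% of all probe sets were lower. None had both knockout arrays below both wild-type arrays, against 16.1% of all probe sets. The median difference was -0.063, and it turned to 0.16 without knockout replicate 1 and to 0.024 without wild-type replicate 1. None was called by limma (0.0% of all probe sets) or had an unadjusted p below 0.05, and none passed the study's threshold (2.06% of all probe sets).

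**Figure D3:**
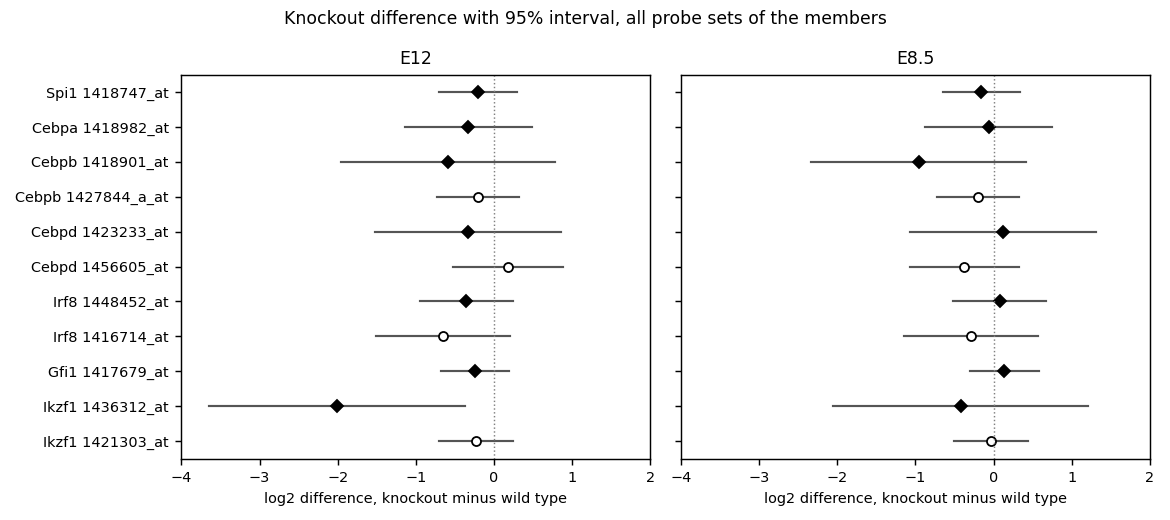
Knockout minus wild-type log2 difference with its 95% interval from limma for all 11 probe sets, at E12 (left) and E8.5 (right), with filled diamonds for the brightest probe set of a gene and open circles for the others. At E12 the interval of the brightest Ikzf1 probe set (-3.64 to -0.38) lies below 0, and all other intervals at both stages cross 0.

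The dependence of the knockout difference on stage was tested as the E12 difference minus the E8.5 difference. No member was called by limma (0.00444% of all probe sets) or had an unadjusted p below 0.05, and none passed the study's threshold (0.688%). The largest value was that of Ikzf1, -1.59 (SE 0.96, 95% interval -3.90 to 0.72). Without E8.5 wild-type replicate 2 the values were 1.35 for Cebpb and -2.60 for Ikzf1, with replicate 1 as the whole E8.5 wild-type group.

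Across the stages, 27.8% of all probe sets were called between E8.5 and E12 in wild type and 25.6% in knockout. None of the brightest probe sets of the members was called in either, and none had an unadjusted p below 0.05. The shares past the study's threshold were 31.7% and 30.1%, again with no member. Both Cebpb probe sets read lower at E12: the brightest by -1.25 in wild type and -0.88 in knockout (SE 0.57 each), and the other by -0.64 and -0.65 (SE 0.22 each, limma adjusted p = 0.074 in each). The wild-type value of the brightest was -2.23 without E8.5 wild-type replicate 2 and -0.27 without E8.5 wild-type replicate 1. The knockout differences of Cebpb and Ikzf1 (-0.88 and -1.28) use no wild-type array and stayed the same without 1 or the other E8.5 wild-type array. Only the shared spread changed in those fits, since a group of 1 array adds nothing to it. These values also carry the unsettled scaling between stages.

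Relatives of the members were read from lists of the same families. Gfi1b, the paralog of Gfi1 that acts in red cells and platelets, was the one gene of these lists past an absolute t of 3 at E12. It read 6.87 and 6.40 for E12 wild type but 5.58 and 5.16 for E12 knockout, without overlap, a difference of -1.27 (SE 0.30) that was not called (limma adjusted p = 1.00). At E8.5 it read 6.16 and 6.70 in wild type against 5.92 and 6.41 in knockout. Of the 6 genes in its list, which also holds the corepressors that GFI proteins recruit, 4 were lower at E12.

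The other families had no common direction at E12. Lower in the knockout were 4 of 10 SPI and ETS relatives, 0 of 2 C/EBP relatives, 5 of 7 IRF genes, 1 of 4 Ikaros relatives and 8 of 17 other myeloid regulators, none of them past the study's threshold at E12. Ets1, a lymphoid and endothelial ETS factor, differed by -0.10 at E12 and by 0.96 (SE 0.38) at E8.5. Cebpg and Ddit3, which dimerise with other C/EBP proteins, differed at E12 by 0.29 and 0.25. Irf3 and Irf9, which carry interferon signals, differed by -0.31 and -0.25, and Ikzf2 and Ikzf4, Ikaros relatives of T cells, by 0.42 and -0.13. Past the threshold at E8.5 was Egr2, a zinc finger factor of hindbrain and macrophages, at 3.27 and 3.38 in wild type against 4.79 and 3.97 in knockout (1.05, SE 0.30). It had the lowest mean of its list (4.05), and these readings lay below the median of every E8.5 array. Whether Egr2 lay above background is not known.

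Among the members the largest E12 difference was that of Ikzf1 (-2.01, SE 0.68). Among the measured genes of PU.1 and the C/EBP factors it was that of Cebpb (-0.59, SE 0.57). Of the known target genes of PU.1 and C/EBP factors, 4 differed at E12 by more than Ikzf1: Lyz1, Mpo, Fcgr3 and Ncf1. The probe sets of Spi1, Cebpa and Cebpd had means of 5.10, 4.84 and 4.96, near the array medians. A dim probe set has less room to fall, so these sizes do not rank the factors against their targets. Of 44 target genes measured, 37 were lower in the E12 knockout, where 47.5% of all probe sets were, with a median of -0.40. For 26 both knockout arrays lay below both wild-type arrays, as for 15.8% of all probe sets. Past a t of -3 were 13, where 0.473% of all probe sets were, and 1 was called. Under the other settings that count was 9 to 18. Several of these genes had been seen to be lower in earlier results of the same arrays, so they are no independent evidence. At E8.5, 27 of the 44 were lower, with a median of -0.066.

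Granule proteins and lysozymes held the largest of these. Lyz1, a lysozyme, read 7.39 and 6.89 for E12 wild type but 3.72 and 3.74 for knockout, and fell by 3.41 on the log2 scale (limma adjusted p = 0.034). The name of its probe set marks probes that may also bind related sequences, of which Lyz2 is one. The call was lost without any 1 of the E12 arrays or either E8.5 knockout array (limma adjusted p = 0.21 to 0.84). Mpo is the peroxidase of granulocyte precursors and a target of several members. It read 8.38 and 7.63 in E12 wild type against 4.78 and 4.88 in knockout, a difference of -3.18 that was not called (limma adjusted p = 0.055). With dim probe sets filtered out (limma adjusted p = 0.035) and with a trended prior (0.011) it was called. S100a8, a calcium-binding protein of neutrophils, differed by -1.74 and Lyz2 by -1.23. Of the 14 genes in this list 12 were lower and 5 passed a t of -3.

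Among the phagocyte oxidase genes 3 of 4 were lower and 2 passed: Ncf1 differed by -2.14 and Cyba by -1.01. All 8 measured signalling proteins were lower and 4 passed. These were Coro1a, an actin regulator of leukocytes (-1.74), the kinase Btk (-1.52), and the adaptors Tyrobp (-1.28) and Fcer1g (-0.59). Of 11 integrins and phagocyte receptors 7 were lower and 2 passed, the Fc receptor Fcgr3 (-2.17) and the integrin chain Itgb2 (-1.06).

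All 7 growth factor receptors were lower at E12, with a median of -0.14, and none passed the study's threshold. Csf1r, the receptor for the macrophage growth factor M-CSF and a target of PU.1, was named after its values were seen. It read 9.57 and 9.05 in E12 wild-type arrays and 7.85 and 7.68 in E12 knockout arrays, without overlap, a difference of -1.55 (SE 0.61). Csf2rb, the shared chain of the GM-CSF receptor, was likewise named after its values were seen and differed by -0.56 (SE 0.19), and the other 5 by -0.24 to -0.04. Csf2ra, a receptor chain for GM-CSF, passed at E8.5, at 5.47 and 5.11 in wild type against 4.44 and 4.67 in knockout (-0.73, SE 0.20). Of 7 acute phase genes, a list tied to C/EBP beta and delta, 6 were lower at E12 with a median of -0.12. Among them Hp, a haemoglobin-binding plasma protein, differed by -0.49 (SE 0.23) and Socs3 by -0.11 (SE 0.78).

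**Figure D4:**
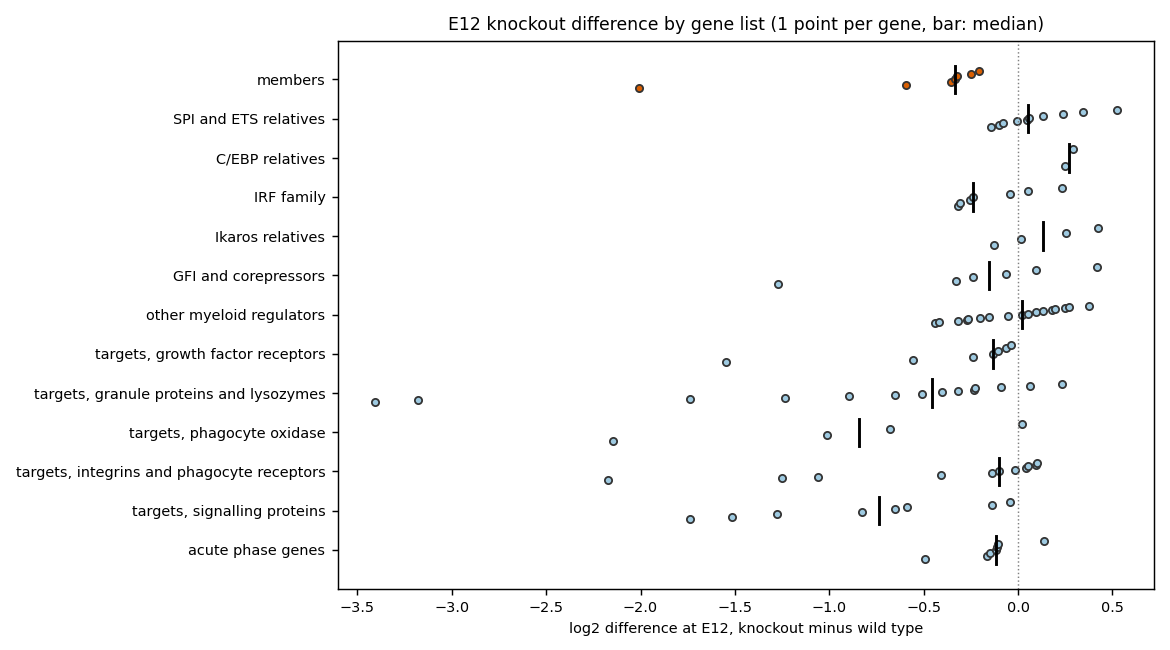
Knockout minus wild-type log2 difference at E12 for the 7 members (orange), their relatives and their target genes, 1 point per gene at its brightest probe set, with the median of each list as a bar. The medians are -0.33 for the members, -0.45 for granule proteins and lysozymes and -0.74 for signalling proteins, and Ikzf1 (-2.01) stands apart from the other members.

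Between the stages many targets were called in wild type, while the brightest probe sets of the factors were not called. From E8.5 to E12, 35 of the 44 target genes were higher in wild type, 22 were called in either direction (27.8% of all probe sets) and the median was 0.68, against 0.31 over the members. In knockout 34 were higher, 8 were called (25.6% of all probe sets) and the median was 0.31, against -0.35 over the members.

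Markers of macrophages and granulocytes were lower at E12 as well. Of 11 macrophage genes, of which Csf1r and Mrc1 are also target genes, 10 were lower in knockout and 5 passed a t of -3. Their summed intensity was 1458 and 1121 in wild type against 472 and 449 in knockout. Ctss, a macrophage protease, was called (-3.29, limma adjusted p = 0.0054), though not without any 1 of the E12 arrays or either E8.5 knockout array (limma adjusted p = 0.068 to 0.27). The 9 granulocyte genes are all in the list of granule proteins and lysozymes too, so they repeat part of its count. Of them 8 were lower and 3 passed, with sums of 816 and 486 against 288 and 273. In both marker lists E12 wild-type replicate 1 summed highest, the array that also read highest at E12 for the 7 members. Among the E12 arrays it also summed highest for the lymphoid and trophoblast lists given below. It summed lowest there for the red cell, fat cell and sensory cell lists, and neither highest nor lowest for fetal liver and yolk sac. The part of cell numbers in the members' differences was not tested.

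The other cell types listed did not separate in this way at E12. No list held markers of megakaryocytes or blood progenitors. Whether the difference was particular to macrophages and granulocytes was therefore not tested. Lower were 7 of 10 lymphoid genes, with sums of 485 and 344 in wild type against 432 and 416 in knockout, and of these Rag1, a recombinase of lymphocytes, was higher past the study's threshold (0.51, SE 0.16). Lower were also 4 of 8 red cell genes, 6 of 11 genes of fetal liver and yolk sac, 3 of 6 trophoblast, 3 of 5 fat cell and 2 of 6 sensory cell genes. At E8.5 the 6 trophoblast genes were all lower on average in knockout, with sums of 13600 and 631 in wild type against 1072 and 643. Of the liver and yolk sac genes 10 of 11 were higher, with sums of 20721 and 46586 in wild type against 32830 and 46317. Wild-type replicate 1 had the highest trophoblast sum and the lowest liver and yolk sac sum of the E8.5 arrays. Fgg, a fibrinogen chain, was higher past the threshold (1.16, SE 0.32).

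Genes with array profiles most like each member were found by the root mean square difference between log2 profiles over the 8 arrays, each centred on its mean. For Ikzf1 they were Tal1 (0.41), Itga2b (0.42) and Lyl1 (0.43), distances that are wide beside those of the other members. Tal1, Itga2b and Lyl1 differed at E12 by -1.11, -1.91 and -1.19. They were chosen for likeness to Ikzf1 over these same arrays, so their lower E12 values are no separate result. Nearest to Cebpb were Grb2 (0.14), Slc7a5 (0.16) and Batf3 (0.19), which differed at E8.5 by -0.95, -1.02 and -0.90, beside -0.96 for Cebpb. These genes too were chosen for likeness over the same arrays, so their E8.5 values are no separate result. The readings of Cebpb spanned 2.86 over the arrays, and the highest, 7.33, came from E8.5 wild-type replicate 1. The part of that array in the likeness was not tested.

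For Spi1, whose readings spanned 0.85 over the arrays, the 10 nearest were Rp1 (0.066), Cyp2j13, Fuz, Trim30d, Dennd1c, Aldoart2, 4933428M09Rik, Dapk1, A930017K11Rik and Dcaf8l (0.097). Such a narrow span lets many genes come close. Nearest to Cebpa were Neurl2, Clstn3 and Tgfbr2, to Cebpd Pitx1, AU040320 and Xrcc1, to Irf8 Gnaz, Aldh1l1 and Aatk, and to Gfi1 Hsd17b6, Grm4 and Stau1, at distances of 0.035 to 0.16.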

How the data were processed

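RNA was extracted with Trizol, amplified from oligo-dT primers, and labelled and hybridised to Affymetrix mouse arrays at a genome facility. The deposited values are intensities on a linear scale to which the authors applied Robust Multi-array Analysis (normalization and summary by probe set). The sources used here do not state whether all 8 arrays were normalized together, and hold no detection calls. Intensities were put on the log2 scale without a pseudocount. The 45101 probe sets included 64 controls, which were left out. Symbols were those of the platform annotation, with older ones replaced through RefSeq: 34945 probe sets had 1 symbol, 932 had several and 9160 had none. All 45037 were fitted in limma 3.58.1 (R 4.3.3) as 1 model of the 8 arrays with a mean for each group, and a call was an adjusted p below 0.05 (Benjamini-Hochberg, over every probe set tested). Lists were read from the brightest probe set of each gene. Genes named from a list were those past an absolute t of 3 (at most 4 for a stage) or, where none passed, the first 2 by absolute t, and also the nearest profiles (10 for Spi1, 3 for others). Csf1r, Csf2rb, Ctss, Rag1 and Fgg were named after their values were seen. The fit was tested on simulated data. The number of arrays limits the precision. Members, lists and tests were chosen with earlier results of these data known. Alternatives were a filter on dim probe sets (log2 above 5 on at least 2 arrays), a pseudocount of 16, quantile normalization, the mean of all probe sets, a trended robust prior, each stage alone, a replicate block, and each array left out.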

Additional observations from a re-analysis of the deposited data

Results flagged for a closer look

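Target genes with opposite knockout differences at the 2 stages were Fcgr3, Itgb2 and Tyrobp. In each, both E12 knockout arrays lay below and both E8.5 knockout arrays above the wild-type arrays of their stage. Fcgr3 read 6.38 and 5.62 at E8.5 in wild type against 6.87 and 7.15 in knockout. At E12 it read 6.62 and 6.59 in wild type against 4.35 and 4.52 in knockout. Its E12 difference minus its E8.5 difference was -3.18 (limma adjusted p = 0.46), that of Itgb2 was -1.71 and that of Tyrobp -1.46 (limma adjusted p = 1.00 for each). None of the 3 differences between stages was called.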

How the results depend on the processing

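The labels number the arrays in each group 1 and 2 without stating a pairing. Deviations of same-numbered arrays correlated at 0.37 at E8.5 and 0.17 at E12. With the replicate block, 1 member (Ikzf1) passed an absolute t of 3 at E12 and none was called. Ikzf1 alone also passed at E12 under the dim filter, quantile normalization, the mean of probe sets and the trended prior (1 each). With each stage fitted alone 2 passed, Ikzf1 and Cebpb. The median difference of E12 minus E8.5 in knockout was -0.67 under the dim filter and -0.017 with the mean of probe sets.

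Leaving out 1 array at a time, the count past the threshold was 0 to 2 at E12, 0 to 1 at E8.5 and 0 to 2 for the stage dependence. It was 0 to 1 between stages in wild type and 0 to 2 in knockout, and the members called were as many there and 0 to 1 at E8.5. A group left with 1 array adds nothing to the shared spread. The counts of these fits therefore rest on the spread of the other groups. The median member difference ranged from -0.65 to -0.038 at E12, from -0.069 to 0.16 at E8.5, from -0.58 to 0.058 for the stage dependence and from 0.039 to 0.44 between stages in wild type.

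Signs also turned for some member differences. With the mean of probe sets, E8.5 gave -0.13 for Cebpd and -0.11 for Irf8, and the stage dependence of Cebpd was 0.048. With quantile normalization, Cebpa and Irf8 differed between stages in knockout by -0.13 and -0.14. With arrays left out, E8.5 ranges were -0.52 to 0.39 for Cebpa, -1.94 to 0.024 for Cebpb, -0.52 to 0.76 for Cebpd, -0.072 to 0.35 for Gfi1, -1.43 to 0.59 for Ikzf1, -0.094 to 0.25 for Irf8 and -0.32 to 0.0044 for Spi1, and Cebpd at E12 gave -0.89 to 0.23. The stage dependence ranged from -0.72 to 0.19 for Cebpa, -0.61 to 1.35 for Cebpb, -1.09 to 0.19 for Cebpd and -0.24 to 0.14 for Spi1. Between stages, wild type gave -0.095 to 0.81 for Cebpa, -0.85 to 0.43 for Cebpd, -0.17 to 0.25 for Gfi1 and -0.70 to 1.32 for Ikzf1, and knockout -0.11 to 0.24 for Irf8. The causes were not tested.

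The E12 difference of Ikzf1 was -2.43 to -1.12 under all settings, and its limma adjusted p was 0.11 to 1.00. Lyz1 was not called with the pseudocount, quantile normalization, the replicate block or each stage alone (limma adjusted p = 0.055 to 0.073), and Mpo was called under the dim filter and the trended prior (limma adjusted p = 0.035 and 0.011). With 2 arrays per group, a difference of about 1 log2 unit in an uneven gene such as Cebpb was within error.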
